A study of Mus musculus with 12 samples.

Results

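Heat shock proteins were examined in cells of the mouse lung sorted as Pdgfra+ (Cd140a+) mesenchymal cells. The libraries also held RNA of leukocyte markers, with values given below. The 10 genes Hspa1a, Hspa1b, Hspa8, Hsph1, Hsp90aa1, Hspb1, Dnajb1, Hspe1, Hspd1 and Bag3 were taken by gene symbol from the 40760 genes of the count table. All 10 were found and all 10 passed the filter on low counts, among 17418 genes tested. The study has 12 bulk RNA-seq libraries from cells sorted by flow cytometry from fresh lungs of male mice, 3 in each of 4 groups. WT mice were given vehicle (WT vehicle) or bleo (WT bleo), and so were mice labelled Pear1-/- (Pear1-/- vehicle or Pear1-/- bleo). Bleo is bleomycin, a DNA-breaking agent used to produce lung fibrosis in mice. By the study's methods the mice were adult and of C57BL/6 background, and the Pear1-/- mice carry a knockout-first allele in every cell, in which a trapping cassette between exons ends the transcript early. The study's methods describe bleo given as an aerosol into the trachea at a lower or a higher dose per body weight. Which dose was used for these libraries, the day on which their cells were collected and the number of mice behind each were not given in the sources used here, so p-values measure the spread between these libraries, which may in part be technical.

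Heat shock proteins are chaperones that bind unfolded proteins. Hspa1a, Hspa1b and Hspa8 encode cytosolic HSP70s, which hold and release their clients in an ATP cycle. Dnajb1, a J-domain protein of the HSP40 class, starts that cycle, whereas Hsph1 and Bag3 act on it as nucleotide exchange factors. Hsp90aa1 encodes the inducible cytosolic HSP90, Hspb1 the small heat shock protein HSP27 (HSP25 in mouse), and Hspd1 and Hspe1 the HSP60 and HSP10 that form the folding chamber of mitochondria. Most of these genes are transcribed under the control of heat shock factor 1, which binds repeats of GAA in alternating orientation in front of its targets. Hspa8 is the constitutive HSP70 and is expressed at a high level without stress in most cells.

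On GRCm38, in the GENCODE annotation, the HSP70 genes are Hspa1a (ENSMUSG00000091971) at chr17:34969190-34972156 (minus strand), Hspa1b (ENSMUSG00000090877) at chr17:34956436-34959238 (minus strand) and Hspa8 (ENSMUSG00000015656) at chr9:40800984-40810087 (plus strand). The co-chaperone genes are Dnajb1 (ENSMUSG00000005483) at chr8:83608193-83612653 (plus strand), Hsph1 (ENSMUSG00000029657) at chr5:149614287-149636376 (minus strand) and Bag3 (ENSMUSG00000030847) at chr7:128523616-128546981 (plus strand). The HSP90 gene and the small heat shock protein gene are Hsp90aa1 (ENSMUSG00000021270) at chr12:110690605-110702728 (minus strand) and Hspb1 (ENSMUSG00000004951) at chr5:135887919-135889563 (plus strand). The chaperonin genes are Hspd1 (ENSMUSG00000025980) at chr1:55077835-55088243 (minus strand) and Hspe1 (ENSMUSG00000073676) at chr1:55088132-55091307 (plus strand). The exons of Hspd1 and Hspe1 overlap by 112 bases on opposite strands, and Hspa8 holds 3 small nucleolar RNA genes on its own strand (Snord14c, Snord14d and Snord14e), so that reads of these parts could be counted to either gene.

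The stretches in front of 5 genes are shown, each of which holds a match. Searched in them were 2 such repeats in a tail-to-tail or head-to-head arrangement, as the letters GAANNTTC or TTCNNGAA. Any link between these letters and the expression values below was not tested. Matches are in capitals. Each search pattern covers both strands, since the reverse complement of a match fits the same pattern, and the sequences are RefSeq's on GRCm38.p6, read 5′ to 3′ on the strand of the gene. The Hspa1a stretch is at chr17:34972157-34972406 on the minus strand, that of Hspa1b at chr17:34959239-34959488 on the minus strand and that of Hspb1 at chr5:135887669-135887918 on the plus strand, and each ends at the base before the start of its gene. Hspe1 and Hspd1 are transcribed away from each other and share the fourth stretch, of 30 bases, at chr1:55088053-55088082 on the plus strand. It lies before the start of Hspe1 and before the start of the second RefSeq entry of Hspd1. It is also inside the annotated bounds of Hspd1, in an annotated first exon of an alternative Hspd1 transcript.
Hspa1a: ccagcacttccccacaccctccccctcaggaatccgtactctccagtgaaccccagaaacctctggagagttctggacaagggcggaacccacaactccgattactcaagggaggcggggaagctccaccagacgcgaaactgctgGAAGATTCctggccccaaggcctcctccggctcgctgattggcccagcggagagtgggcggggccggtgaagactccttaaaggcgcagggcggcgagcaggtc
Hspa1b: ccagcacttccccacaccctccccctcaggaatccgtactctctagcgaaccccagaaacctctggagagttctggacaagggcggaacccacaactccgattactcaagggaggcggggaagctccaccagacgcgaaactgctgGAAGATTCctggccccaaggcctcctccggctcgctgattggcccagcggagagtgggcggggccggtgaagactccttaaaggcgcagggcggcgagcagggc
Hspb1: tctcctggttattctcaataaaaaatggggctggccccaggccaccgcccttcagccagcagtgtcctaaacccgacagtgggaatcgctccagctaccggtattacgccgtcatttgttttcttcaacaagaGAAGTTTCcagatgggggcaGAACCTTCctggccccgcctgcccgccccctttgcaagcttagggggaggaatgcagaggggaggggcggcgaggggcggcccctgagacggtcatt
Hspe1 and Hspd1: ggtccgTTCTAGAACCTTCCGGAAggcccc

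Of the 10 genes, 8 had at least 1 entry in the RefSeq promoter table, and Hspa8 and Hsp90aa1 had none. Within 250 bases before the start, 6 of the 8 genes held GAANNTTC or TTCNNGAA in at least 1 entry. Of all 32851 promoter entries 12.8% held either, a share per entry and not per gene. Hspa1a and Hspa1b each held GAAGATTC from 104 bases before the start, in windows that differed at 3 of 250 bases. Hspb1 held 2 matches, and Hsph1 held TTCTCGAA at 33 bases before the start of its first entry. The stretch shared by Hspe1 and the second entry of Hspd1 held 3 overlapping matches, which together make the 3-unit forms TTCNNGAANNTTC and GAANNTTCNNGAA present in 0.466% of all entries. The window of the first entry of Hspd1 held no match. No match was in the windows of Dnajb1 and Bag3. A match is a string of letters and was not tested for binding.

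The depth was between 6702948 and 10447101 counts per library, and each of the 10 genes had more than 3 counts, the floor for detection, in every library. Pear1 itself had 520 ± 24.0 normalized counts (SD, n = 3) in the vehicle libraries labelled Pear1-/- and 547 ± 28.8 in those labelled WT, a difference within the spread between replicates (adjusted p = 0.470), and it was higher in Pear1-/- bleo than in WT bleo (357 ± 14.2 against 254 ± 14, adjusted p = 1.20e-04). Gene-level counts do not separate exons before the cassette from those after it, so the labels are used as given and the libraries are called those labelled Pear1-/-. WT vehicle replicate 2 stood apart from its group. A chi-square statistic on its counts, divided by the degrees of freedom so that counting noise gives 1, was 24.3 and 25.3 against the other 2 WT vehicle libraries but between 1.79 and 2.77 against the 3 vehicle libraries labelled Pear1-/-. The other 10 pairs of libraries of 1 group gave between 1.34 and 5.07, with a median of 1.46. By this measure WT vehicle replicate 2 goes against its label, whether the label is right was not tested, and values that the library moves most are given with and without it. Every p-value below comes from edgeR's quasi-likelihood test with Benjamini-Hochberg adjustment, and a gene is called changed at an adjusted p under 0.05. With all libraries the adjustment is over the 17418 genes tested. Fits without a library, or with Hspa1a and Hspa1b summed, were filtered and adjusted anew, over 20405 genes without WT vehicle replicate 2. Normalized counts are counts divided by the size factor of the library.

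**Figure D1:**
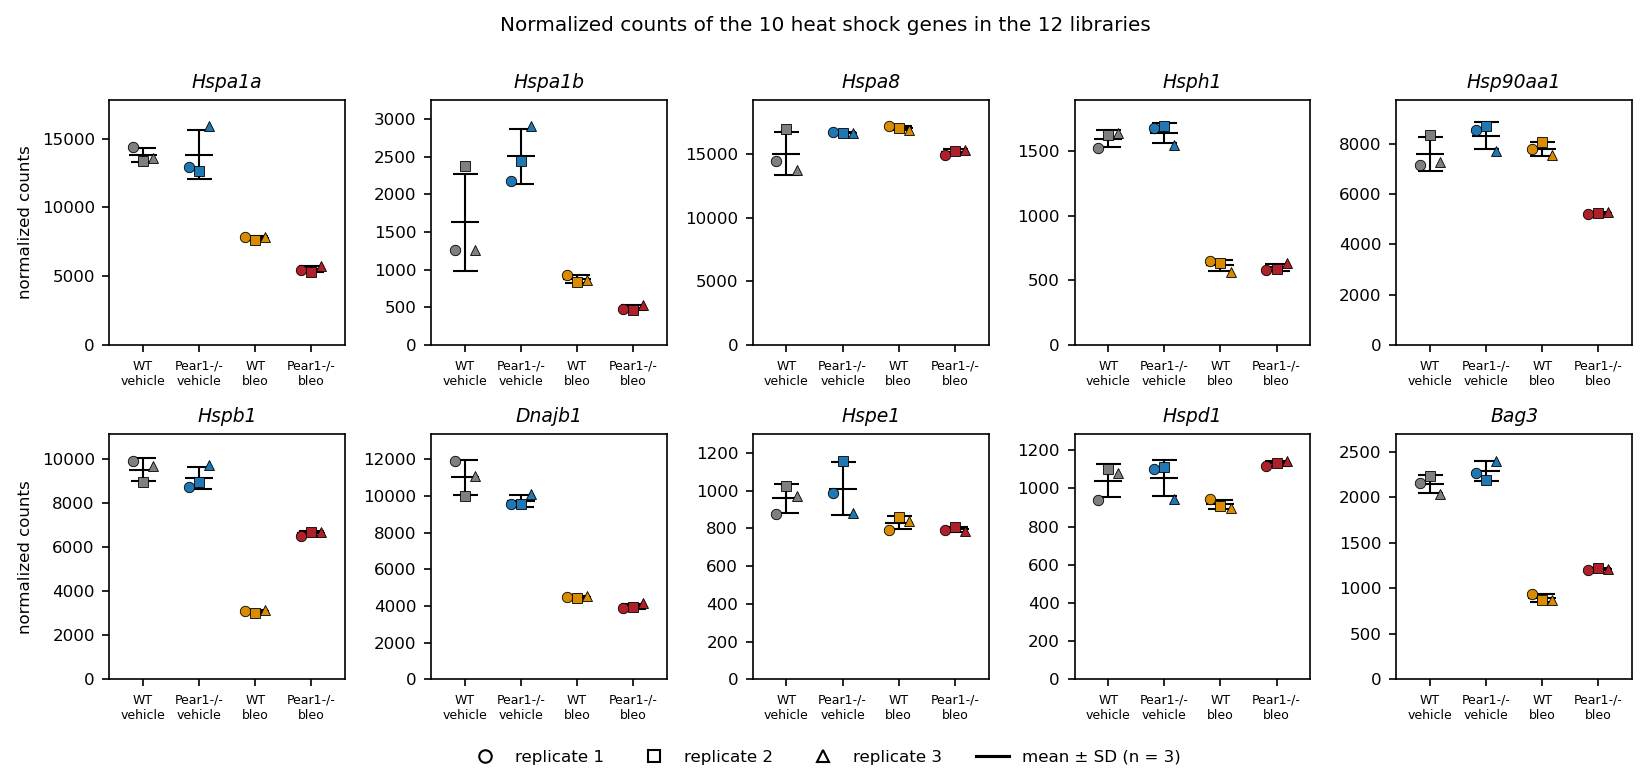
Normalized counts of the 10 genes (vertical axes, linear, from 0) in the 12 libraries by group, with the mean and SD of 3 replicates as bars. Hspa1a, Hspa1b, Hsph1, Hspb1, Dnajb1, Bag3 and, by a small margin, Hspe1 are lower in every bleo library than in every vehicle library. Hspb1 sits between 6502 and 6670 in Pear1-/- bleo but between 3007 and 3140 in WT bleo.

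In vehicle lungs the 10 genes covered a wide range of levels. As normalized counts per kb of exonic length in WT vehicle, the median was 9377 for Hspb1, 4585 for Hspa1a, 3459 for Dnajb1, 3353 for Hspa8, 1847 for Hsp90aa1, 841 for Bag3, 660 for Hspe1, 450 for Hspa1b, 409 for Hspd1 and 224 for Hsph1. The ranges of Dnajb1 and Hspa8 overlapped, and that of Hspa1b, which reached 847 in replicate 2, overlapped those of Hspe1 and Bag3. In WT bleo Hspa8 had the highest level per kb (between 3922 and 3994), above Hspb1 (between 2917 and 3046), and in Pear1-/- bleo Hspb1 (between 6306 and 6469) was above Hspa8 (between 3477 and 3567). Exonic length is the union over all annotated transcripts, so that a gene such as Hsph1 with 11 transcripts has a low value on this scale.

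To see what bleo did in WT mice, WT bleo was compared with WT vehicle. The J-domain protein, both nucleotide exchange factors, the small heat shock protein and both inducible HSP70s were lower, Hspa8 was slightly higher, and Hsp90aa1 and both mitochondrial chaperonin genes did not pass the test. In counts, 6 of the 10 genes were lower, where 36.6% of all genes tested were lower, and 1 was higher, where 31.4% were higher. With a fold change above 2 as a further criterion, 4 were lower (23.5% of all genes tested) and 0 were higher (10.5%). The median log2 fold change was -0.85 over the 10 genes and -0.07 over all genes tested.

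Hspb1 had the largest log2 fold change of the 10 in this comparison. It had 9915, 8938 and 9668 normalized counts in WT vehicle and 3075, 3007 and 3140 in WT bleo, so the log2 fold change came to -1.62 (standard error 0.0639, adjusted p = 9.61e-12). Hsph1, the HSP110 that reloads HSP70 with ATP, had 1518, 1625 and 1635 in WT vehicle and 647, 633 and 565 in WT bleo, so the log2 fold change came to -1.36 (standard error 0.0745, adjusted p = 4.09e-10). For both genes the groups were far apart, with no vehicle library near a bleo library. Dnajb1 had 11921, 9991 and 11082 against 4506, 4449 and 4531 normalized counts, so the log2 fold change came to -1.28 (standard error 0.0678, adjusted p = 2.76e-10). Bag3, which links HSP70 to selective autophagy and to small heat shock proteins, had 2154, 2236 and 2039 against 942, 872 and 871, so the log2 fold change came to -1.25 (standard error 0.0685, adjusted p = 4.23e-10).

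Hspa1a and Hspa1b had smaller log2 fold changes. Hspa1a had 14387, 13387 and 13604 normalized counts in WT vehicle and 7822, 7600 and 7850 in WT bleo, so that expression was 1.76-fold lower (log2 fold change -0.82, standard error 0.0774, adjusted p = 2.29e-07). Hspa1b had 1262, 2375 and 1262 in WT vehicle, where replicate 2 was the high one, and 935, 833 and 865 in WT bleo (log2 fold change -0.88, standard error 0.188, adjusted p = 6.81e-04). Without WT vehicle replicate 2 the log2 fold change of Hspa1b was -0.45 (adjusted p = 3.64e-06). Hspa8 had 14421, 16936 and 13749 in WT vehicle and 17180, 17030 and 16869 in WT bleo, with WT vehicle replicate 2 inside the range of bleo (log2 fold change 0.19, standard error 0.0641, adjusted p = 0.0155). The call of Hspa8 was lost without WT vehicle replicate 1 (0.17, adjusted p = 0.0577) or 3 (0.14, adjusted p = 0.0790), and without replicate 2 the log2 fold change was 0.35 (adjusted p = 2.68e-09).

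The other 3 genes gave small values in WT mice. Hsp90aa1 had 7139, 8369 and 7260 normalized counts in WT vehicle and 7790, 8072 and 7541 in WT bleo, in overlapping ranges (log2 fold change 0.05, 95% interval -0.08 to 0.19, adjusted p = 0.524). Without WT vehicle replicate 2 the value of Hsp90aa1 was 0.19 (adjusted p = 7.11e-04). Hspe1 had 877, 1025 and 973 against 792, 862 and 836, every bleo library below every vehicle library (-0.20, interval -0.38 to -0.02, adjusted p = 0.0688). Hspd1 had 940, 1102 and 1081 against 943, 910 and 899 (-0.17, interval -0.33 to -0.01, adjusted p = 0.0709). Without WT vehicle replicate 2 the values of Hspe1 and Hspd1 were -0.08 (adjusted p = 0.333) and -0.06 (adjusted p = 0.411).

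In mice labelled Pear1-/-, the same comparison of bleo with vehicle gave 8 lower genes and 0 higher ones. Of all genes tested 33.4% were lower and 28.9% were higher. With a fold change above 2, 4 were lower (19.4% of all genes tested) and 0 higher (8.38%). The genes that did not pass were Hspa8 and Hspd1, and the median log2 fold change of the 10 was -0.79, against -0.05 over all genes tested. The 2 bleo comparisons share no library.

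Hspa1b, the less counted copy of the inducible HSP70 pair, changed most. It had 2182, 2441 and 2904 normalized counts in Pear1-/- vehicle and 481, 471 and 535 in Pear1-/- bleo, 5.05-fold lower (log2 fold change -2.34, standard error 0.195, adjusted p = 8.18e-08). Hspa1a had 12959, 12666 and 15883 against 5486, 5301 and 5775, with replicate 3 the highest vehicle library (-1.32, standard error 0.0782, adjusted p = 1.58e-09). The 3 co-chaperone genes fell as well. Hsph1 had 1676, 1688 and 1546 against 577, 591 and 630 (-1.45, standard error 0.0744, adjusted p = 3.13e-10), and Dnajb1 had 9558, 9526 and 10078 against 3881, 3923 and 4143 (-1.28, standard error 0.0678, adjusted p = 4.35e-10). Bag3 had 2271, 2188 and 2403 against 1204, 1221 and 1213 (-0.91, standard error 0.0676, adjusted p = 2.12e-08).

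Hsp90aa1, whose product folds kinases and hormone receptors, had 8568, 8695 and 7729 normalized counts in Pear1-/- vehicle and 5206, 5235 and 5305 in Pear1-/- bleo, with no overlap (log2 fold change -0.66, standard error 0.0692, adjusted p = 9.37e-07). Hspb1 had 8732, 8934 and 9707 against 6502, 6670 and 6658 (-0.46, standard error 0.0623, adjusted p = 1.37e-05). Hspe1 had 988, 1159 and 883 against 792, 809 and 784 (-0.34, standard error 0.0911, adjusted p = 0.00436). Hspa8 had 16705, 16649 and 16630 against 14957, 15262 and 15341, every bleo library below every vehicle library (-0.13, 95% interval -0.26 to -0.0041, adjusted p = 0.0904). Hspd1 had 1103, 1114 and 943 against 1119, 1133 and 1146 (0.11, interval -0.05 to 0.26, adjusted p = 0.250).

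**Figure D2:**
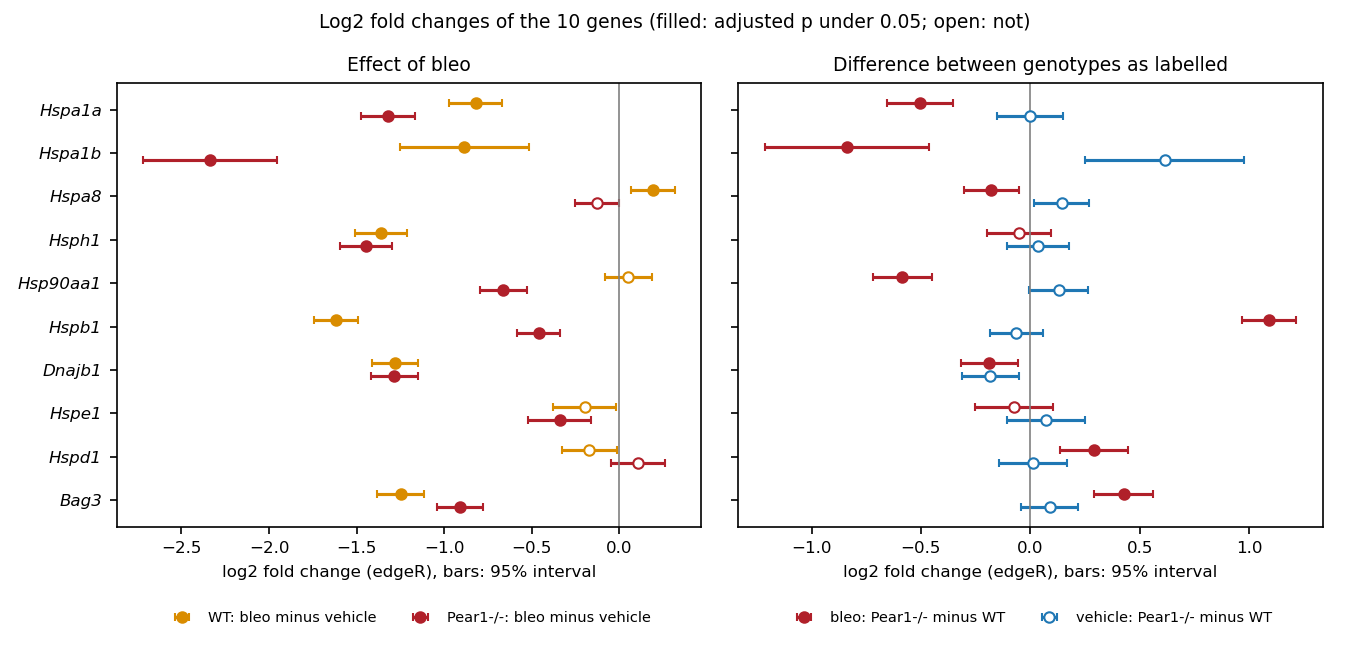
Log2 fold changes (horizontal axes) of the 10 genes, left for bleo minus vehicle in WT and in mice labelled Pear1-/-, right for Pear1-/- minus WT in bleo and in vehicle, with 95% intervals as bars and filled points for an adjusted p under 0.05. Hspb1 is at -1.62 in WT and -0.46 in Pear1-/- on the left, and no point of the vehicle comparison on the right is filled.

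The difference in the effect of bleo between WT and Pear1-/- libraries was tested with an interaction term, which is the log2 fold change in Pear1-/- minus that in WT. It passed for 6 of the 10 genes, 2 positive, where 17.9% of all genes tested were positive, and 4 negative, where 19.1% were. Hspb1 on the positive side (8.61% of all genes tested) and Hspa1b on the negative side (7.06%) were also past a fold change of 2. Hspb1 gave 1.16 (standard error 0.0883, adjusted p = 2.19e-07) and Bag3 0.34 (standard error 0.0953, adjusted p = 0.0121), both with a smaller decrease in Pear1-/-. Negative values were -1.45 for Hspa1b (standard error 0.266, adjusted p = 6.32e-04), -0.71 for Hsp90aa1 (standard error 0.0976, adjusted p = 5.09e-05), -0.50 for Hspa1a (standard error 0.109, adjusted p = 0.00220) and -0.32 for Hspa8 (standard error 0.0906, adjusted p = 0.0120). For Hsph1 the term was -0.09 (95% interval -0.29 to 0.12) and for Dnajb1 -0.0042 (interval -0.19 to 0.18), and without WT vehicle replicate 2 they were -0.18 (adjusted p = 0.0919) and -0.02 (adjusted p = 0.841). Without WT vehicle replicate 2 Hspa1b gave -1.91 (adjusted p = 3.33e-19), Hspa8 -0.50 (adjusted p = 1.54e-09), Bag3 0.22 (adjusted p = 0.0230) and Hspe1, which was not called with all libraries, -0.28 (adjusted p = 0.0222). The call of Bag3 was lost when any bleo library or Pear1-/- vehicle replicate 1 or 2 was left out, with adjusted p between 0.0754 and 0.157.

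The comparison of Pear1-/- bleo with WT bleo split the 10 genes. Hspb1, Bag3 and Hspd1 were higher, 3 genes where 22.1% of all genes tested were higher, and Hspa1a, Hspa1b, Hspa8, Hsp90aa1 and Dnajb1 were lower, 5 genes where 23.9% were lower. Hspb1 was 2.13-fold higher (log2 fold change 1.09, standard error 0.0631, adjusted p = 3.06e-09), the 1 gene of the 10 also past a fold change of 2 (6.26% of all genes tested were higher and 8.76% lower by both criteria), with its lowest Pear1-/- bleo library at 6502 and its highest WT bleo library at 3140 normalized counts. Bag3 was higher by 0.43 (standard error 0.0681, adjusted p = 1.12e-04) and Hspd1 by 0.29 (standard error 0.0798, adjusted p = 0.00756). Of the lower genes, the log2 fold change was -0.84 for Hspa1b (standard error 0.192, adjusted p = 0.00222), -0.58 for Hsp90aa1 (standard error 0.0691, adjusted p = 5.90e-06) and -0.50 for Hspa1a (standard error 0.0772, adjusted p = 7.48e-05). Dnajb1 (-0.19, adjusted p = 0.0315) and Hspa8 (-0.18, adjusted p = 0.0333) were near the threshold. For Dnajb1, Hspa8 and Hspd1 the libraries of the 2 bleo groups did not overlap. Of 14 alternative settings, Dnajb1 passed in 7 (-0.22 to -0.17), Hspa8 in 6 (-0.19 to -0.16) and Hspd1 in 10 (0.27 to 0.31). Hspa8 was not called when any one of the 6 bleo libraries was left out (adjusted p between 0.122 and 0.158), Dnajb1 when any but Pear1-/- bleo replicate 3 was, and Hspd1 when WT bleo replicate 2 or 3 or Pear1-/- bleo replicate 2 or 3 was (adjusted p between 0.0552 and 0.0682). Hsph1 (-0.05, interval -0.20 to 0.10) and Hspe1 (-0.07, interval -0.25 to 0.10) overlapped between the groups.

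Between the vehicle groups 0 of the 10 genes passed, where 0.855% of all genes tested were higher and 3.65% were lower. With a fold change above 2 it was 0 as well, where 0.0344% of all genes tested were higher and 2.33% lower. At an unadjusted p under 0.05 there were 3, and both DESeq2 and limma on variance-stabilized values called 0. Hspa1b had the largest log2 fold change, 0.61 (95% interval 0.25 to 0.97, adjusted p = 0.0591), with WT vehicle replicate 2 inside the Pear1-/- range. Without that library 5 of the 10 were higher (25.5% of 20405 genes tested) and 1 was lower (29.7%). The values were then 1.06 for Hspa1b (adjusted p = 2.48e-15), 0.31 for Hspa8, 0.28 for Hsp90aa1, 0.20 for Hspe1 and 0.19 for Bag3, and -0.17 for Dnajb1. Cell type markers and immediate early genes also moved in this refit, as given below.

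Cell type markers moved with both bleo and genotype, and in bulk RNA fewer cells of a type and less RNA per cell cannot be told apart. Normalized counts of Pdgfra, the sorting marker, were 4565 ± 325 (SD, n = 3) in WT vehicle against 1360.1 ± 29.9 in WT bleo, and 4165 ± 39.1 in Pear1-/- vehicle against 2392 ± 18.8 in Pear1-/- bleo. The summed CPM of 12 leukocyte markers ranged from 3058 to 3669 over the 6 vehicle libraries, from 16111 to 16378 over WT bleo and from 7185 to 7352 over Pear1-/- bleo, with 10 of the 12 higher and 1 lower in WT bleo than in WT vehicle, 7 higher and 3 lower in Pear1-/- bleo than in Pear1-/- vehicle (median log2 fold change 0.79, from -1.58 to 2.88), and 0 higher and 11 lower in Pear1-/- bleo than in WT bleo. Ptprc, which encodes the leukocyte antigen CD45, had between 3010 and 4016 normalized counts over the vehicle libraries, from 7542 to 7727 over WT bleo and from 3241 to 3448 over Pear1-/- bleo. In both bleo groups Ptprc was above Pdgfra, so the heat shock values are of mixed RNA and not of mesenchymal cells alone. For 8 fibroblast markers the summed CPM ranged from 17906 to 19003 over the vehicle libraries, from 12485 to 12614 over WT bleo and from 32604 to 33382 over Pear1-/- bleo, but single markers went both ways. In Pear1-/- bleo against Pear1-/- vehicle 4 of the 8 were higher, among them Col1a1 (log2 fold change 2.18), and 4 were lower, Dcn (-2.41), Lum (-1.33), Inmt (-2.94) and Pdgfra (-0.80), and in WT bleo 2 were higher and 6 lower. Between the bleo groups 6 of the 8 were higher in Pear1-/- bleo and 0 lower. For epithelial markers the sum ranged from 2118 to 2575 over the vehicle libraries, from 987 to 1012 over WT bleo and from 329 to 345 over Pear1-/- bleo, with 3 of 5 markers lower and 2, Epcam (0.36, or 0.57 without WT vehicle replicate 2) and Cdh1 (0.90), higher in WT bleo, and 4 lower and Cdh1 higher (1.26) in Pear1-/- bleo. The summed CPM of 5 endothelial markers ranged from 330 to 366 over the 6 vehicle libraries and from 164 to 190 over the 6 bleo libraries, with all 5 lower in each comparison of bleo with vehicle (median log2 fold change -1.04 in WT and -1.04 in Pear1-/-), or 4 of 5 in WT without WT vehicle replicate 2. Sums of 3 mesothelial and 5 erythroid markers were at most 33.9 CPM in any library, with 2 and 3 markers lower in WT bleo and 1 and 2 lower in Pear1-/- bleo against vehicle, where 1 erythroid marker was higher. No marker of these lists was at or under 3 counts in any group. Between the vehicle groups without WT vehicle replicate 2, 10 of 12 leukocyte markers were higher and 1 lower in Pear1-/-. Of the endothelial, epithelial and erythroid markers 4 of 5 each were higher and 0 lower. Fibroblast markers had 4 of 8 higher and 2 lower, and mesothelial markers 0 of 3 higher and 1 lower. Of all genes tested there, 25.5% were higher and 29.7% lower. The part of these shifts in the changes of the heat shock genes was not tested. The 14 immediate early genes, which cells switch on within minutes of many stimuli and of which many encode transcription factors, summed to between 25983 and 27121 CPM in the vehicle groups, from 25743 to 26497 over WT bleo and from 23981 to 24390 over Pear1-/- bleo. Of the 14, 5 were higher and 4 lower in WT bleo against vehicle (8 and 4 without WT vehicle replicate 2), 4 higher and 7 lower in Pear1-/- bleo against vehicle, and 4 higher and 5 lower in Pear1-/- bleo than in WT bleo. Of all genes tested, 31.4% were higher and 36.6% lower in the first comparison (31.7% and 44.7% without that library), 28.9% and 33.4% in the second and 22.1% and 23.9% in the third, so the counts of this list are not read as a result about it. Between the vehicle groups 0 of the 14 were called, but 12 were higher and 1 lower without WT vehicle replicate 2 (25.5% and 29.7% of all genes tested). Jund, which encodes a subunit of the factor AP-1, had 354, 454 and 363 normalized counts in WT vehicle, 770, 782 and 817 in WT bleo, and 321, 317 and 332 in Pear1-/- bleo. Jund gave a log2 fold change of 1.03 with bleo in WT (adjusted p = 5.51e-08), -0.56 with bleo in Pear1-/- (adjusted p = 4.94e-05) and -1.30 between the bleo groups (adjusted p = 1.26e-08), the lowest of the 14 there. Egr1 fell (-1.32 in WT bleo and -1.26 in Pear1-/- bleo against vehicle) and Atf3 rose (1.48 and 0.55), whereas Fos gave 0.02 in WT bleo (adjusted p = 0.768), or 0.14 (adjusted p = 0.00249) without WT vehicle replicate 2.

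Hspa1a and Hspa1b lie near each other on chromosome 17 and encode almost the same protein, so their counts depend on how reads common to both were assigned, which the sources used here do not state. The coding parts, of 1923 and 1926 bases, were 99.58% identical over aligned bases with a longest identical run of 638 bases, whereas the parts after the coding sequence were 57.94% identical with a longest shared run of 27 bases. Hspa1a also overlaps the gene Gm20481 on the opposite strand over 564 exonic bases, and the counting is not stated to use strand. Of the summed counts of both copies, Hspa1b took 8.07%, 15.1% and 8.49% in WT vehicle and 14.4%, 16.2% and 15.5% in Pear1-/- vehicle. In WT bleo it took 10.7%, 9.88% and 9.92%, and in Pear1-/- bleo 8.07%, 8.16% and 8.47%. The exact binomial 95% interval of WT vehicle replicate 2, 14.5% to 15.6%, lay within the range of Pear1-/- vehicle, and that of WT vehicle replicate 1 was 7.60% to 8.55%. Intervals cover counting error only. When the counts of both were summed into 1 gene, the log2 fold change was -0.83 in WT bleo against WT vehicle, -1.44 in Pear1-/- bleo against Pear1-/- vehicle and -0.53 between the bleo groups, all past the threshold, and 0.08 between the vehicle groups (adjusted p = 0.488).

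**Figure D3:**
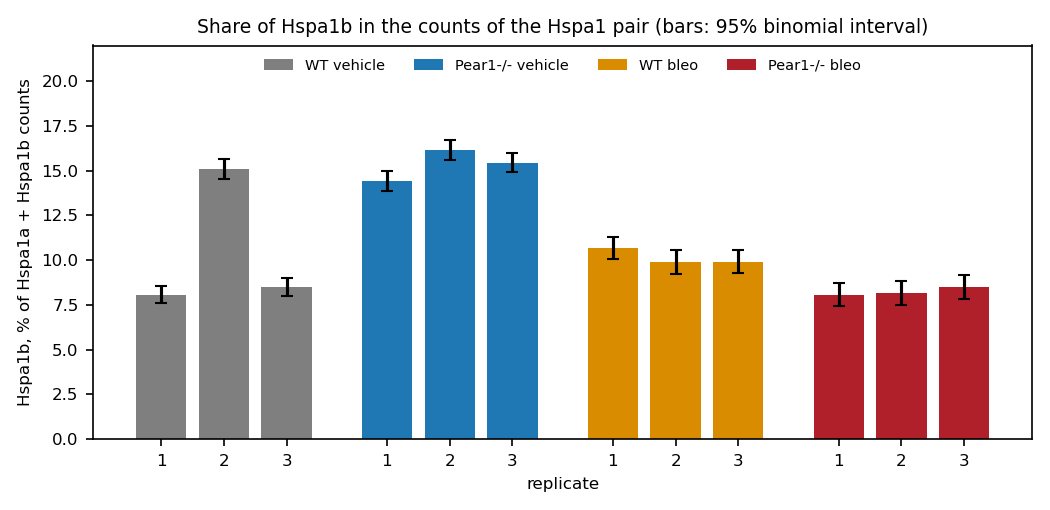
Share of Hspa1b in the summed counts of Hspa1a and Hspa1b (vertical axis, percent, from 0) in the 12 libraries, with exact binomial 95% intervals as bars. WT vehicle replicate 2, at 15.1%, stands with the Pear1-/- vehicle libraries and not with WT vehicle replicates 1 and 3, at 8.07% and 8.49%.

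Of the other small heat shock protein genes, 5 of 8 could be tested, and their products, like that of Hspb1, hold unfolded proteins without using ATP. In WT bleo against WT vehicle 4 were lower and 1 was higher, in Pear1-/- bleo against Pear1-/- vehicle 1 was lower and 3 were higher, and in Pear1-/- bleo against WT bleo all 5 were higher. Of all genes tested, 36.6% were lower and 31.4% higher in the first comparison, 33.4% and 28.9% in the second, and 22.1% were higher in the third. The summed CPM of 4 pericyte and smooth muscle markers ranged from 422 to 485 over WT vehicle and from 335 to 342 over WT bleo, and from 398 to 428 over Pear1-/- vehicle and 904 to 912 over Pear1-/- bleo, so that the sum was lower with bleo in WT and higher with bleo in Pear1-/-. Of the 4 markers, 1 was higher and 2 lower in WT bleo against vehicle (1 and 1 without WT vehicle replicate 2) and 2 were higher and 2 lower in Pear1-/- bleo against vehicle. Between the bleo groups Acta2 was higher (log2 fold change 1.52), Myh11 lower (-0.40) and the other 2 not called. The part of these markers in the small heat shock protein values was not tested. Cryab, alpha-B crystallin, had 956, 933 and 1006 normalized counts in WT vehicle, 443, 522 and 452 in WT bleo, and 927, 912 and 905 in Pear1-/- bleo, within the range of the 6 vehicle libraries (876 to 1006). Its log2 fold change was -1.02 in WT bleo (adjusted p = 1.11e-08) and 0.03 in Pear1-/- bleo (adjusted p = 0.724). Hspb7 had between 76.1 and 94.4 normalized counts over the 6 vehicle libraries, 140, 116 and 129 in WT bleo and 470, 499 and 517 in Pear1-/- bleo (log2 fold change between the bleo groups 1.93, adjusted p = 3.38e-10). For Hspb2 and Hspb6, at between 54.9 and 188 normalized counts, the log2 fold changes between the bleo groups were 1.19 and 1.16. Hspb8, a partner of Bag3, gave -1.42 with bleo in WT and -1.09 with bleo in Pear1-/-, and 0.66 for Pear1-/- bleo against WT bleo.

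**Figure D4:**
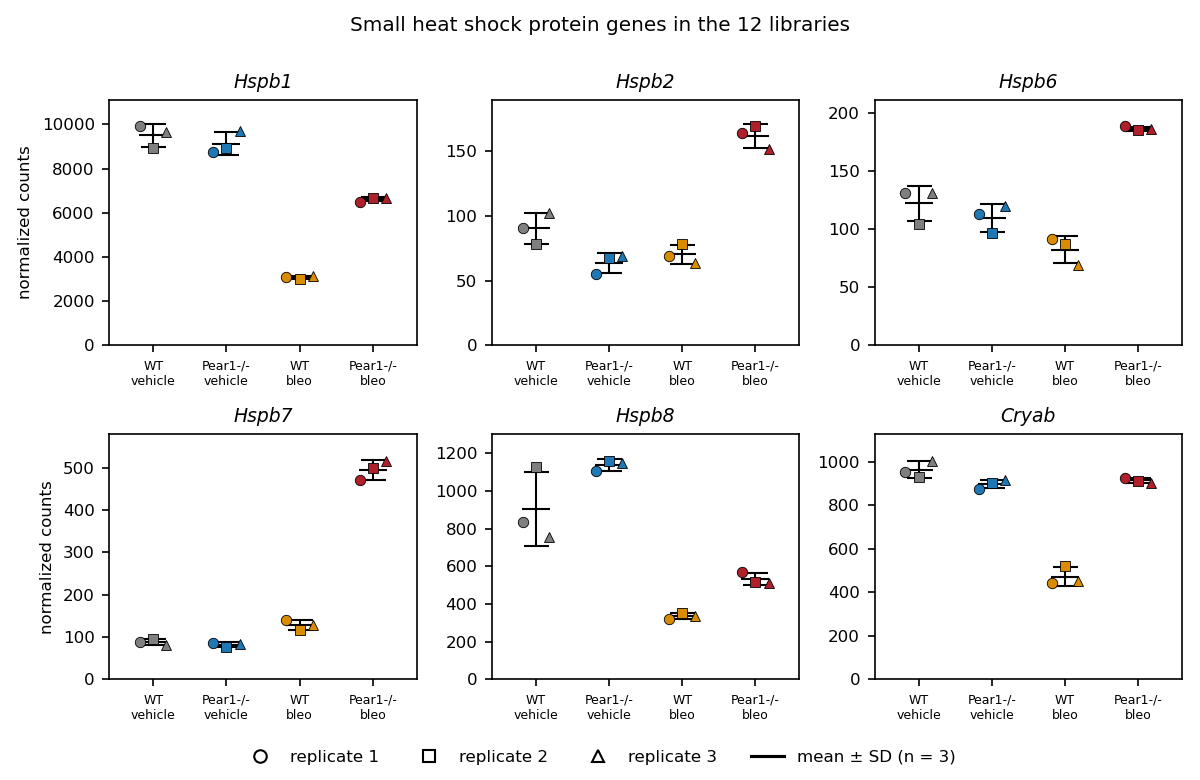
Normalized counts of Hspb1 and 5 other small heat shock protein genes (vertical axes, linear, from 0) in the 12 libraries by group, with the mean and SD of 3 replicates as bars. In each panel every Pear1-/- bleo library is above every WT bleo library.

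Among the other families, the cytosolic chaperonin TRiC, which folds actin and tubulin, moved up with bleo. The shares of all genes tested to read these counts against are the 31.4% higher and 36.6% lower in WT bleo, 28.9% and 33.4% in Pear1-/- bleo, and 22.1% and 23.9% between the bleo groups. Of its 8 subunit genes 7 were higher in WT bleo and 8 in Pear1-/- bleo against vehicle, with medians of 0.42 and 0.54, and 7 were higher in Pear1-/- bleo than in WT bleo, with a median of 0.30. Of 9 other HSP70 family genes tested, 5 were lower and 2 higher in WT bleo, and 6 lower and 2 higher in Pear1-/- bleo. In Pear1-/- bleo against WT bleo 6 of the 9 were higher and 1 lower (median 0.28). For bleo against vehicle, in WT and then in Pear1-/-, Hspa5, the HSP70 of the endoplasmic reticulum, gave -0.46 and -0.51. On the same 2 comparisons Hspa2 gave -1.21 and -1.30, and Hspa12a -2.09 and -1.30. Without WT vehicle replicate 2 the value of Hspa5 in WT was -0.25. The other 3 HSP90 family genes gave 0 calls in WT bleo, 2 lower in Pear1-/- bleo against vehicle, and 1 higher in Pear1-/- bleo than in WT bleo. Hsp90ab1, the constitutive HSP90, gave -0.02 in WT bleo and -0.27 in Pear1-/- bleo against vehicle (adjusted p = 0.0116 for the latter). Without WT vehicle replicate 2 the direction of Hsp90ab1 in WT bleo turned, to 0.18 (adjusted p = 9.98e-04), and it was then the 1 of the 3 that was called. Of 12 other J-domain genes 7 were lower in each of the 2 bleo comparisons and 3 were higher in WT bleo and 2 in Pear1-/- bleo, with Dnajb4 at -1.64 and -1.27 and Dnaja4 at -1.63 and -1.33. Of 15 co-chaperone genes tested, 7 were higher and 2 lower in WT bleo and 5 were higher and 2 lower in Pear1-/- bleo, and Bag2 was lower in WT bleo (-1.24) and higher in Pear1-/- bleo than in WT bleo (1.04). Hsf1, which encodes heat shock factor 1, was -0.25 in WT bleo (adjusted p = 0.00376) and -0.04 in Pear1-/- bleo (adjusted p = 0.614). Hsf2 was -0.47 in WT bleo (adjusted p = 0.00983) and 0.07 in Pear1-/- bleo (adjusted p = 0.692), and Hsf4 was -1.18 in WT bleo (adjusted p = 2.62e-04) and -0.44 in Pear1-/- bleo (adjusted p = 0.0751). Without WT vehicle replicate 2, when 31.7% of all genes tested were higher and 44.7% lower in WT bleo, the calls there were 8 higher of 8 for TRiC, 3 higher and 5 lower of 9 for the other HSP70 genes, 4 higher and 7 lower of 12 for the J-domain genes, 8 higher and 1 lower of 15 for the co-chaperones, and 1 higher and 4 lower of 6 for the other small heat shock protein genes.

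Genes with the most similar profile over the 12 libraries were sought among 10699 genes whose mean log2 CPM was 3 or more, by the root mean square difference of centred log2 CPM. The nearest was Slc29a1 for Hspa1a (0.0996), Pim2 for Hspa1b (0.197), Atp6ap1 for Hspa8 (0.0416), Pard3b for Hsph1 (0.0763) and Nab1 for Hsp90aa1 (0.0544). It was Lamb1 for Hspb1 (0.0695), Heg1 for Dnajb1 (0.0894), Cd47 for Hspe1 (0.0612), Tram1 for Hspd1 (0.050) and Rbms3 for Bag3 (0.0564). Among the 10 genes themselves Hsph1 and Dnajb1 were the closest pair (0.147), followed by Hspa1a and Dnajb1 (0.178). The distance of 0.186 between the chaperonin partners Hspe1 and Hspd1 exceeded the distance of either from a flat profile (0.166 and 0.128), and Hspe1 was as near to Hspa8 (0.185).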

How the data were processed

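RNA of lung cells sorted for Pdgfra was amplified to full-length cDNA (SMART-Seq v4), sequenced as paired reads and aligned by the authors to GRCm38 with HISAT2, and the program that counted reads is not given in the sources used here. The authors deposited raw counts per gene and the same counts divided by a DESeq2 size factor for each library, a normalized signal used here for display. Counts were tested with edgeR 4.0.16 (R 4.3.3) by quasi-likelihood, with TMM scaling, filterByExpr, 1 mean for each of 4 groups over 12 libraries and Benjamini-Hochberg adjustment over 17418 genes, which was first tested on simulated data. Alternatives were RLE scaling, DESeq2 1.42.0, limma 3.58.1 on VST values, other filters, only the groups compared, the replicate number as a block, each library left out, and Hspa1a and Hspa1b summed. Groups followed the labels. Named were the 10 genes, Hsf1, Hsf2, marker and target genes, the nearest profile of each gene, and genes of the chaperone and immediate early lists past an adjusted p of 0.05 and a fold change of 2 in a pairwise comparison, if their mean log2 CPM reached 1. Other genes of these lists (Hspa5, Hsp90ab1, Fos) and Snord14c, Snord14d and Snord14e were named after their values were seen. Members and lists were chosen with earlier results of these data known. The 95% intervals are the estimate plus or minus 1.96 standard errors. Gene lengths came from GENCODE M21 and promoters from RefSeq.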

Additional observations from a re-analysis of the deposited data

Results flagged for a closer look

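For 6 of the 10 heat shock genes the change with bleo was not the same in WT and Pear1-/- libraries, by the interaction term of edgeR's quasi-likelihood test. The difference of log2 fold changes, Pear1-/- minus WT, was 1.16 for Hspb1 (-0.46 against -1.62) and 0.34 for Bag3 (-0.91 against -1.25). It was -0.50 for Hspa1a (-1.32 against -0.82), -1.45 for Hspa1b (-2.34 against -0.88), -0.32 for Hspa8 (-0.13 against 0.19) and -0.71 for Hsp90aa1 (-0.66 against 0.05). Of all genes tested, 17.9% had a positive and 19.1% a negative term past the threshold.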

How the results depend on the processing

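No alternative reversed the direction of a called value of the 10 genes. Counts of called genes among the 10 that moved by over 1.5 times were as follows. In WT bleo against WT vehicle the 1 higher gene became 0 with limma on VST values, with genes kept from a mean log2 CPM of 1 upwards and with only the groups compared, and lay between 0 and 2 with each library left out in turn. In Pear1-/- bleo against WT bleo the 5 lower genes became 3 with limma on VST values and 3 with no filter, and lay between 3 and 4 with each library left out. In the vehicle comparison the 0 higher genes became 1 with no filter and lay between 0 and 5 with each library left out, and the lower genes between 0 and 1. For the interaction, the 2 positive genes became 1 with no filter and lay between 1 and 3 with each library left out. WT vehicle replicate 2 decided the vehicle comparison, and WT vehicle replicates 1 and 3 decided the Hspa8 call in WT bleo. Hspe1 and Hspd1 passed in WT bleo against WT vehicle with RLE scaling (-0.23 and -0.20) and DESeq2, and without WT vehicle replicate 2 they did not (-0.08 and -0.06). Of 1200 counts of the 8 other chaperone and immediate early gene lists under the alternatives, 215 moved by over 1.5 times, 16 of 224 in WT bleo, 43 of 224 in Pear1-/- bleo, 47 of 224 between the bleo groups, 40 of 224 between the vehicle groups and 69 of 304 for the interaction. Between the bleo groups the higher TRiC genes lay between 3 and 8 and the higher other HSP70 genes between 2 and 7, whereas the 5 higher small heat shock protein genes stayed at 5. With the replicate number as a replicate block the counts were 1 higher and 6 lower in WT bleo, 0 and 8 in Pear1-/- bleo, 3 and 5 between the bleo groups, 0 and 0 between the vehicle groups, and 2 and 4 for the interaction. Same-numbered libraries had correlations of their deviations from the group means between -0.19 and 0.091, so the numbers did not pair the libraries. Over all genes, leaving out WT vehicle replicate 2 raised the calls in the vehicle comparison from 784 to 11258, and leaving out any other vehicle library gave 0. The cause was not tested.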
